A study of Mus musculus with 378 samples.

Results

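The exocytosis machinery genes described here are the genes whose symbols begin with Syt, Sytl, Stx, Stxbp, Vamp, Snap, Rims or Cplx and a digit, or with Unc13, Rab3 or Rab27 and a letter. The rule used names only and found 75 of the 22180 genes in the deposited tables. Their messenger RNA was read in the pancreatic islets of female and male Diversity Outbred mice, 1 poly(A) library per mouse. In this outbred stock every animal carries its own mix of founder genomes, so no 2 libraries are replicates of a genotype. Per the labels, every mouse ate a high-fat, high-sugar diet with 45% fat, and ERCC spike-in RNA went into each sample. The mice are numbered, and numbers from 21 were grouped in steps of 100 into 4 number bands, with 46, 46, 49 and 47 females and 45, 48, 50 and 47 males. The labels do not say what such a band is, and within a band the females' numbers come before those of the males, except for 1 female of band 2 numbered among its males. Apart from that mouse, sex and order within a band cannot be told apart. Ages are not used here.

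Regulated exocytosis is the last step of hormone secretion. Vesicle SNARE proteins (VAMPs) zip up with syntaxin and SNAP proteins of the target membrane, Stxbp (Munc18) proteins hold syntaxin, Unc13 and Rims proteins prime the vesicle, complexins clamp the complex, and synaptotagmins sense calcium. The GTPases Rab3 and Rab27, with effectors such as the synaptotagmin-like proteins, bring granules to the membrane. In beta cells Snap25, Stx1a, Vamp2 and Syt7 are textbook parts of this machine, and all 4 were above 0 in every library. Not every gene caught by the rule is a fusion protein: Snap91 is a clathrin adaptor, Rab3gap1, Rab3gap2, Rab3il1 and Rab3ip regulate Rab3 or other Rabs, and Vamp7-ps is a pseudogene. These were kept as members but left out of the family shares, apart from the pseudogene.

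Total counts ran from 15.1 to 68.8 M (mega-counts) per library, with a median of 34.8 M. Libraries of number band 4 were shallower, with a median of 24 M against 36.4 to 37.2 M in the other bands. Of the 75 genes, 72 had enough counts for the sex test, and Rims1, Rims4 and Unc13c did not. The islet label was checked against 11 beta cell markers, whose summed level ran from 83013 to 342029 CPM over the libraries. CPM is a gene's count scaled to its library's total, with that total adjusted by edgeR's TMM factors. Acinar markers, from digestive enzyme cells of the pancreas, were also present, at 110.9 to 56204 CPM for 14 genes. In such bulk tissue, fewer cells of a type and less RNA per cell cannot be told apart.

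Stx1a and Unc13a were correlated with each other from mouse to mouse, as described below, and their upstream sequences are shown to set them side by side. RefSeq start sites (GRCm38.p6) were available for 58 of the 75 genes. The 250 bases upstream of Stx1a lie at chr5:135023232-135023481 on the plus strand and those of Unc13a at chr8:71671758-71672007 on the minus strand. Capitals mark the GC box GGGCGG, searched on both strands.
Stx1a upstream: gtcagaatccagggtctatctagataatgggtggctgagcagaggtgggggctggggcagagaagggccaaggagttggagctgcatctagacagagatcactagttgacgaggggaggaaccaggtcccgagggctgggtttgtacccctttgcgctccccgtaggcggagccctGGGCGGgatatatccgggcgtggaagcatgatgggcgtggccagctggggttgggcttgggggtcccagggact
Unc13a upstream: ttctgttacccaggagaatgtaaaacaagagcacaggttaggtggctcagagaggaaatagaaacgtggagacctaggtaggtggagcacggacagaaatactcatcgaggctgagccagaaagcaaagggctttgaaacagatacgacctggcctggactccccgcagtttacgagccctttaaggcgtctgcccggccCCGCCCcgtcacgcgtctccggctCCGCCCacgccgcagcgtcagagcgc
Stx1a held 1 such box and Unc13a held 2. The same letters were found in at least 1 upstream window of 42 of the 58 members and in 32.7% of all 32851 upstream windows. The first value counts genes and the second single windows, so they are not like for like. A window of 300 bases, from 250 before to 50 after the start, was also searched on both strands for the left block TTCAGCACC of RE1, the element bound by the neuronal repressor REST, and for its right block, whose reverse complement is the first run of capitals below. Of the 58 members only Unc13a held either block, and it held both, against 0.371% and 0.137% of all windows for each block and 0.0152% (5 windows) for both. The count for both asked for no set spacing, order or strand of the blocks. In Unc13a they lie at chr8:71671727-71671753, bases 5 to 31 after the start, and are shown in capitals because the pair is so rare among starts.
Unc13a RE1 blocks: GGCGCTGTCCgcgcccccGGTGCTGAA
Read on the gene's strand both blocks are reversed, with 8 bases between them, a spacing that was not compared with that of RE1. A match is a description of letters and not of a bound site.

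In several families 1 paralog held most of the RNA. Levels were compared between genes as CPM per kilobase of the longest annotated transcript, and a share is a gene's part of the summed per-kilobase level of its family in a library. Rab27a, the granule GTPase that recruits Sytl4, stood at 118.9 ± 13.87 CPM per kilobase (SD over all libraries, as in all such values below) and made up 99.7% ± 0.175 of the RAB27 family, while Rab27b stood at 0.392. Cplx2 made up 99.02% ± 0.593 of the complexins at 76.3 ± 15.9 CPM per kilobase. Sytl4 (granuphilin), which docks insulin granules, held 85.4% ± 5.81 of the synaptotagmin-like family at 159.2 ± 44.8 CPM per kilobase and was highest in all libraries but 1, in which Sytl1 was highest. Rims3, a short RIM protein, held 83.2% ± 3.98, and Rims2, a full-length RIM, 16.6% ± 3.93. Unc13a, the priming factor Munc13-1, held 75.1% ± 4.52 and Unc13b 21.3% ± 4.94. Each of Rab27a, Cplx2, Rims3 and Unc13a was the highest of its family in every library.

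Stxbp2 and Stxbp3, the Munc18 forms known from non-neuronal secretion, held 16.6% ± 1.97 and 14.8% ± 3.83 of the STXBP family. Their mean shares were near each other in band 1 (16.63% and 17.02%), band 2 (16.79% and 16.49%) and band 3 (16.03% and 16.12%). In band 4 they were 16.93% and 9.66%. Their order was not tested within libraries. Vamp2, the insulin granule SNARE, held 39.6% ± 5.27 of the VAMP family at 76.3 ± 8.40 CPM per kilobase and was highest in all libraries except 6 led by Vamp3 and 1 led by Vamp4. Vamp3 at 44.7 ± 7.67 and Vamp4 at 42.7 ± 9.34 CPM per kilobase had means near each other, and their order was not tested within libraries. Among the RAB3 GTPases, Rab3d, best known from zymogen granules, was highest in every library, at 52.9 ± 14.3 CPM per kilobase and 57.3% ± 6.92 of the family. Rab3a, the neuronal form, stood at 22.7 ± 6.71 and Rab3b at 14.2 ± 3.85 CPM per kilobase. Their order rests on the transcript lengths, since in CPM, without them, Rab3a held 11.70% and Rab3b 16.22% of the family.

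Per kilobase, other families had no single leader. Snap25 at 39 ± 7.32 and Snap47 at 37.6 ± 4.64 CPM per kilobase shared the top of the SNAP family, with 36.84% and 35.96% of it, and each exceeded Snap23 (15.6 ± 3.52) and Snap29 (13.2 ± 2.32). This near tie rests on the transcript lengths, since in CPM, without them, Snap25 was first in every library, with 54.1% of the family against 20.7% for Snap47. Syt4 at 134 ± 44.3 and Syt13 at 130 ± 34.4 CPM per kilobase, synaptotagmins not regarded as calcium sensors, together outweighed the calcium sensor Syt7 at 62.4 ± 12.5. Syt7 held 16.2% ± 3.41 of the family and Syt5 5.77% ± 1.86. Syt1 and Syt2, the sensors of fast synapses, held 0.366% and 0.281%. Among 15 syntaxins, the endosomal Stx12 (46.2 ± 11.3) and Stx7 (43.5 ± 9.03) and the Golgi syntaxin Stx5a (41.9 ± 5.81 CPM per kilobase) were highest. Their order was not tested within libraries, and their nearness rests on the longest transcript. With the union of a gene's exons as its length, their shares were 22.66%, 17.89% and 11.81%. Stx3, a plasma membrane syntaxin, stood at 32.5 ± 5.70. Stx1a ranked 9 of 15, at 9.69 ± 2.63 CPM per kilobase or 3.78% ± 1.18 of the syntaxins, below Stx4a at 17.6 ± 2.06.

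The 4 textbook genes, given with their GRCm38 positions, differed in how far single libraries departed from the median. Snap25 (chr2:136713453-136782428) ran from 115.8 through a median of 192.8 to 287.3 CPM. Vamp2 (chr11:69088490-69092384) ran from 108.9 through 169.7 to 228.3 CPM. Syt7 (chr19:10389090-10453181) ran from 245.2 through 405.5 to 683.4 CPM. Stx1a (chr5:135023482-135051100) ran from 6.72 through 20.6 to 42.2 CPM. The highest library exceeded the lowest 2.48-fold for Snap25, 2.10-fold for Vamp2 and 2.79-fold for Syt7, but 6.28-fold for Stx1a. Counts of Syt7 were fractional in nearly all libraries (whole in 0.265%), and those of 12 members, among them Unc13a, Cplx2, Syt4, Vamp3, Stx5a and Rab3c, were fractional in every library. Fractional counts arise where a read is divided among features it matches, so these levels are less certain than those of the 44 members with whole counts in every library.

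**Figure D1:**
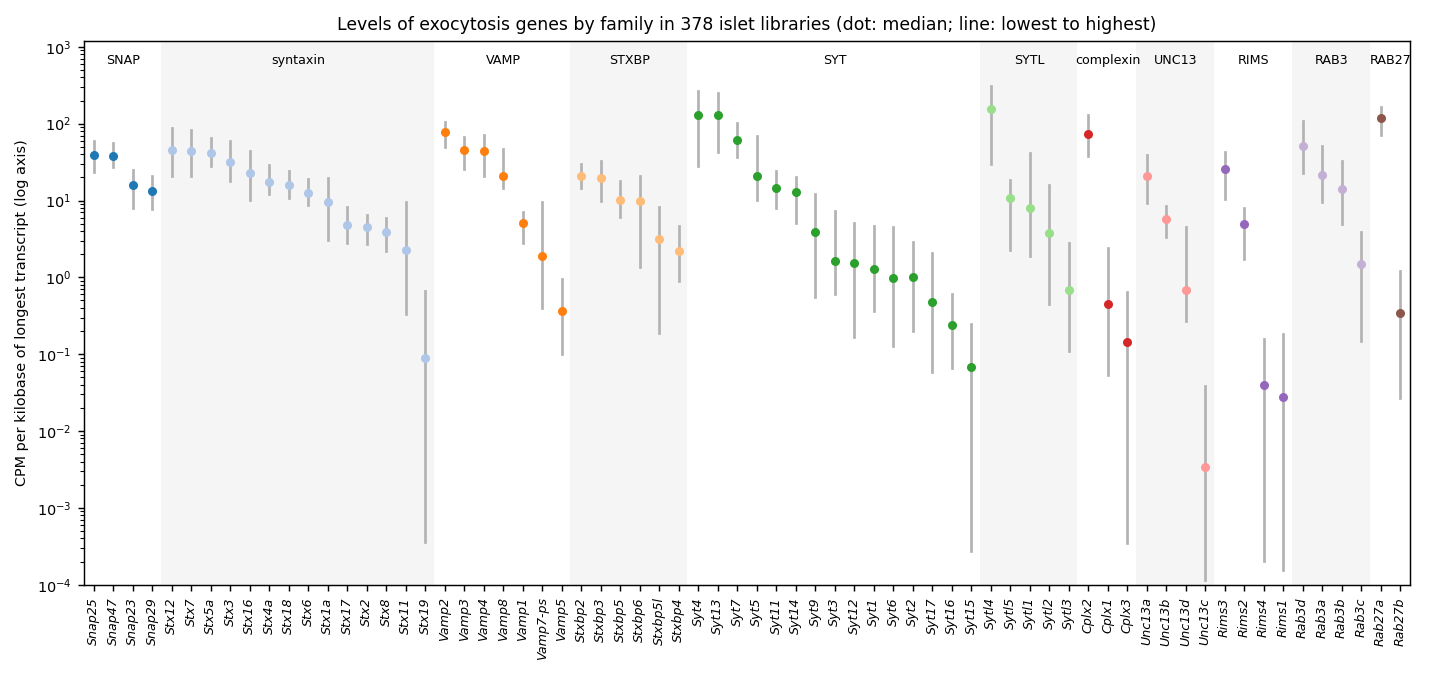
Level of each gene in CPM per kilobase of its longest transcript (log axis), by family, over all libraries. Dots are medians and lines run from the lowest to the highest library, with values of 0 drawn at the lower end of the axis. Rab27a and Cplx2 stand far above their paralogs, while Snap25 with Snap47 and Syt4 with Syt13 share the top of their families on this scale.

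Which paralog led per kilobase depended on the number band in the SNAP, synaptotagmin and syntaxin families. Snap25 was the highest of the SNAP genes on that scale in 71 of 91, 62 of 94 and 76 of 99 libraries of bands 1 to 3 but in 7 of 94 of band 4, where Snap47 led in the other 87. Snap25 averaged 209.4, 204.4, 201.8 and 145.8 CPM in bands 1 to 4, and Snap47 averaged 71.6, 73.8, 70.9 and 68.7 CPM. Syt4 likewise led in 56, 67 and 68 libraries of bands 1 to 3 and in 8 of band 4, with mean levels of 588.1, 563.3, 578.3 and 358.8 CPM, while Syt13 averaged 493, 435, 460 and 575 CPM. Of the syntaxins, Stx12 led in 44, 54 and 62 libraries of bands 1 to 3 and in 23 of band 4. Stx5a led in 24, 16 and 12 libraries of bands 1 to 3 and in 57 of band 4. These syntaxin leads rest on the length used. With the union of a gene's exons as its length, Stx12 led in 334 libraries over all bands and Stx5a in 3. The base composition of the transcript moved with the difference between bands. Snap25 and Syt4 have 38.7% and 40.7% GC and were lower in band 4, and Syt7 (54.7%) and Unc13a (55.1%) were higher there, by 0.41 and 0.44 on the log2 scale against band 1. Across the 72 tested members, GC content and the log2 difference between bands 4 and 1 had a Spearman rho of 0.858, a description across genes of the same libraries. Of them, 62 differed between bands (edgeR, adjusted p under 0.05), where 87.9% of all 16927 tested genes did. The median size of the difference of band 4 from band 1 was 0.305 for members and 0.354 for all genes on the log2 scale. The deposited variance-stabilised (vst) values held no such difference: limma called 0 of 16927 genes between bands, with 0 at an unadjusted p under 0.05. Some genes would fall under that p even if bands did not differ. The 0 thus means that band levels were already equal in these values, and it is no test of a band difference.

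How much the members varied between mice was measured with sex and band removed. For the 58 members averaging at least 5 CPM, the median SD of log2 CPM was 0.243, against 0.238 for all 11108 genes of that level. Relative to the trend of edgeR's dispersion, a measure of variability at a given level, the members' median was 0.447 and that of all such genes 0.318, so by neither measure was the members' median the lower. By dispersion over the trend the most even member was Stx4a, a plasma membrane syntaxin, from 17.85 through a median of 25.31 to 42.03 CPM. Stxbp2 came next, from 42.4 through 61.5 to 85.8 CPM, and had the lower SD of log2 CPM of the pair (0.125 against 0.141). Stx8, an endosomal syntaxin, ran from 9.61 through 17.0 to 26.3 CPM. Stx2 and the trans-Golgi syntaxin Stx6 were the next most even by dispersion, although the SDs of Stx8 (0.170) and Stx2 (0.204) were above that of Vamp2. Vamp2 (SD 0.155 on the log2 scale) and Rab27a (0.162) both lay at percentile 27.2 of dispersion among the genes of mean CPM 5 or more, while Stx1a (0.327) lay at percentile 69.15.

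At the other end stood Sytl2, an effector of Rab27 on secretory granules, which ran from 1.97 through a median of 16.5 to 68.5 CPM and lay at percentile 94.97 of variability. Its 95th percentile library held 7.03 times the level of its 5th percentile library. Stxbp5l (tomosyn-2), an inhibitor of SNARE assembly, ran from 0.832 through 14.0 to 36.6 CPM. Stxbp6 (amisyn), another SNARE-binding inhibitor, ran from 6.30 through 44.8 to 94.9 CPM. Syt9, a calcium sensor, ran from 2.09 through 15.02 to 46.8 CPM, and Stx11, a syntaxin of immune cells, from 1.40 through 9.39 to 39.6 CPM. The ranges of the sexes overlapped for all 75 members.

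**Figure D2:**
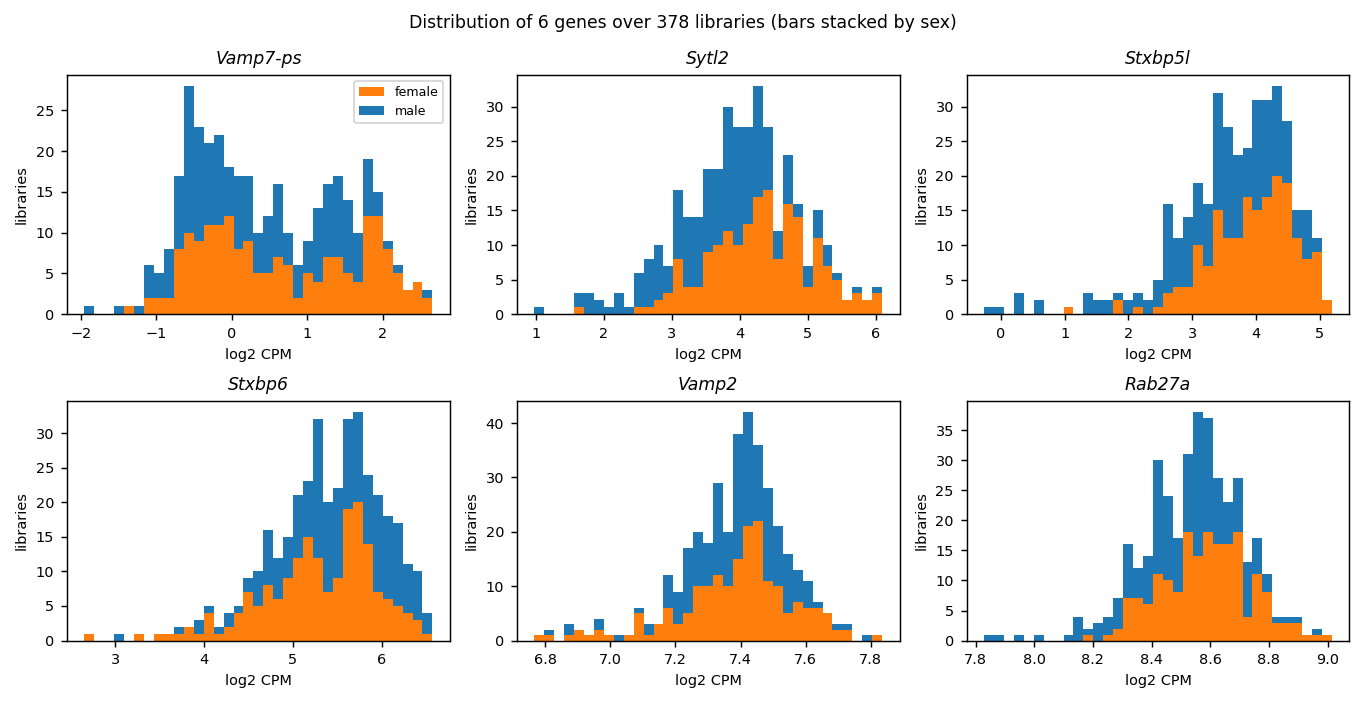
Number of libraries by log2 CPM for 6 genes over all libraries, with bars stacked by sex. Sytl2, Stxbp5l and Stxbp6 spread far wider than Vamp2 (108.9 to 228.3 CPM) and Rab27a (227.3 to 517.3 CPM), and Vamp7-ps shows 2 peaks by eye.

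Correlations between members were computed on the deposited vst values with sex and number band removed, over all mice. Of 14 pairs of binding partners or paralogs, 11 passed limma's test adjusted over all genes. Associations are common among all tested genes: 21% of them passed with Snap25 (10.8% positive, 10.2% negative), 58.3% with Stx1a (30% and 28.3%), 50.4% with Vamp2 (23.6% and 26.8%), 53.3% with Rab3a (25.9% and 27.5%) and 44.3% with Rab27a (22% and 22.4%). For Unc13a the share was 60.3% (29.7% and 30.6%), for Stx4a 37.3% (18.6% and 18.8%), for Snap23 39.4% (19.3% and 20.1%) and for Rab3d 57.6% (27.2% and 30.4%). The strongest of the 14 was Vamp2 with Syt7, granule SNARE and granule calcium sensor (Pearson r = 0.476, Spearman rho = 0.383, permutation p = 1e-05 for both, the smallest that 100000 two-sided permutations within sex and band can give; adjusted p = 1.49e-20). It was positive in all 8 combinations of sex and band, from 0.211 to 0.612. Both genes moved with each library's slope over GC content (r = 0.449 for Vamp2 and 0.320 for Syt7). The ranking is for values with that slope not removed, and this pair's r with it removed is not given here. Unc13a and Stx1a had r = 0.428 and rho = 0.381 (permutation p = 1e-05, adjusted p = 6.09e-17).

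The 3 SNAREs of the insulin granule complex had low correlations with each other. Snap25 and Stx1a had r = 0.079 and rho = 0.037 (permutation p = 0.126 and 0.469, adjusted p = 0.279). Snap25 and Vamp2 had r = 0.136 and rho = 0.171 (permutation p = 0.00823 for r, adjusted p = 0.0431), and neither sex alone passed the test (adjusted p = 0.0546 in females and 0.494 in males). Stx1a and Vamp2 had r = 0.132 and rho = 0.099 (permutation p = 0.0157 and 0.0626, adjusted p = 0.0204), which fell to 0.071 (adjusted p = 0.234) when each library's slope over GC content was removed. Snap25 did not pass with Cplx1 either (r = 0.017, rho = -0.026, permutation p = 0.736 and 0.618, adjusted p = 0.843), a clamp of neuronal SNARE complexes. Its r with Syt7 was 0.177 (rho = 0.157, permutation p = 7.60e-04 and 0.00244, adjusted p = 0.00640).

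Among the granule GTPases, Rab3a and Rab27a were inversely related (r = -0.246, rho = -0.253, permutation p = 1e-05, adjusted p = 7.55e-06), with a negative r in all 8 combinations. Rab27a and its effector Sytl4 had r = 0.334 and rho = 0.184 (permutation p = 1e-05 and 4.00e-04, adjusted p = 7.55e-10). It was 0.506 in males and 0.038 in females (adjusted p = 0.751). Without the 2 libraries farthest from the median of the first gene, r was 0.270, the largest such shift among the 14 pairs. Snap23 and Vamp8, partners in non-neuronal secretion, had r = 0.196 overall (rho = 0.220, permutation p = 1.10e-04 and 2.00e-05, adjusted p = 7.22e-04), 0.418 in females and 0.017 in males (adjusted p = 0.897). Whether either relation differs between the sexes was not tested. Stx4a and its partner Stxbp3 had r = 0.037 and rho = 0.007 (permutation p = 0.470 and 0.896, adjusted p = 0.606). Rab3d and Rab27b had r = -0.195 and rho = -0.186 (permutation p = 2.90e-04 and 3.90e-04, adjusted p = 3.99e-04). Rab3a and Rims2 had r = 0.168 and rho = 0.166 (permutation p = 9.40e-04 and 0.00122, adjusted p = 0.00302). Stx1a and Syt7 had r = 0.201 and rho = 0.205 (permutation p = 1.70e-04 and 1.20e-04, adjusted p = 2.53e-04).

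Over all 2556 pairs of tested members, percentiles 5 and 95 of r were -0.264 and 0.283. The pairs at the ends were picked by these values and are given with no test. Among the highest was that of Syt4 with Stx12, at 0.624 (rho = 0.595), between 0.445 and 0.725 in the 8 combinations of sex and band. It was 0.583 with the GC slope of the libraries removed and 0.601 with the scores of 6 non-endocrine cell types removed. Unc13a with Syt7 came to 0.512, although Stx1a had low r with Vamp2 and Syt7. For Snap25 the closest member was Syt14, at 0.222. Other high pairs were Sytl4 with Syt14 (0.573) and with Rims3 (0.532). Rab3d went with Sytl1 (0.526) and against Stx12 (-0.523) and Stx1a (-0.499), and Cplx2 went against Syt4 (-0.495).

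**Figure D3:**
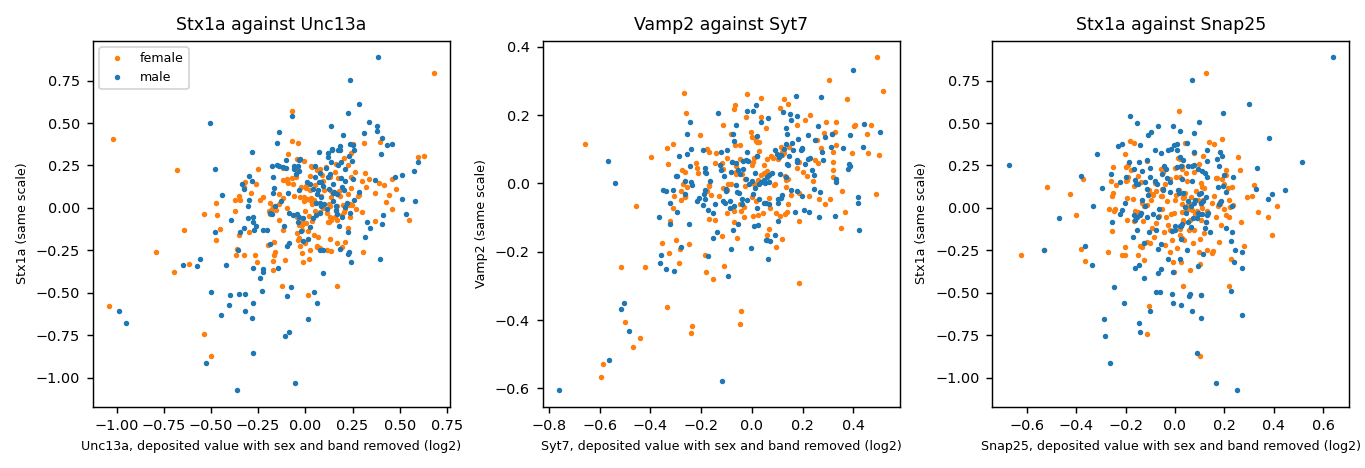
Deposited log2 (vst) values of 3 pairs of genes with sex and number band removed, 1 point per library, coloured by sex. Stx1a rises with Unc13a (r = 0.428) and Vamp2 with Syt7 (r = 0.476), while Stx1a and Snap25 (r = 0.079) form a round cloud.

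The genes most like each textbook gene were sought among 10372 genes that are not members, average at least 5 CPM and have a proper symbol. All r below are over all mice with sex and band removed. Spearman rho ran from 0.315 to 0.622 for the highest genes and from -0.649 to -0.247 for the lowest. Every permutation p was 1e-05 or 2.00e-05, with no adjustment for the choice of genes. Stx1a had the widest field: Ptbp1, an RNA-binding splicing repressor, reached 0.684, followed by Atad3a (0.676), the nuclear import receptor Ipo5 (0.662), the sodium pump subunit Atp1b1 (0.634) and Bms1 (0.630). At the negative end stood the endoplasmic reticulum co-chaperone gene Dnajc1 (-0.719), then Ccpg1 (-0.686), Smpdl3a (-0.683), Cep44 (-0.673) and Nucb2 (-0.660). Vamp2 was most like the transcription factor gene Mef2d (0.675), Pom121 (0.650), Camta2 (0.637), Syn1, which encodes the vesicle protein synapsin 1 (0.632), and the splicing factor gene Sf1 (0.630). It was least like Cnot2 (-0.527), Eif3e (-0.502), Rps14 (-0.499), Plrg1 (-0.494) and Rbm7 (-0.494).

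Syt7 shared Sf1 (0.581) and Pom121 (0.547) with Vamp2, beside Zfhx2 (0.564), the chromatin remodeler gene Smarca4 (0.561) and Pdcd6ip (0.556). Its lowest values were for Cdadc1 (-0.509), Fam118b (-0.495), Supt4a (-0.476), Fbxo8 (-0.469) and Crbn (-0.468). Snap25 again stood apart, with no r above 0.395, that of Cspp1. Ift57 (0.383), Map9 (0.377), Ccnt2 (0.365) and Diras2 (0.354) followed. Its lowest values were for Cdkn2d (-0.391), Rph3al, which encodes the Rab3 and Rab27 effector Noc2 (-0.333), Nup50 (-0.314), Nod1 (-0.313) and Slc41a1 (-0.306). Percentiles 5 and 95 of r over the 10372 genes were -0.184 and 0.181 for Snap25 and -0.387 and 0.376 for Stx1a. Values of Vamp2 and Syt7 themselves moved with each library's GC slope (r = 0.449 and 0.320), whose part in these likenesses was not tested.

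Each member was also set against scores of 10 cell types, each the mean of its markers' scaled vst values, with sex and band removed. For members given below with a rho and an r over 0.3, both permutation p were 1e-05, and for the 3 leading members of the alpha and beta scores and the leaders of the delta and neuron scores r without the 2 farthest libraries was between 0.321 and 0.611. With the alpha cell score, 20 of 72 members were positively and 14 negatively associated (47.2%, limma adjusted p under 0.05), where 47% of all genes were (23% positively, 24% negatively). Rab3c (r = 0.611, rho = 0.573, adjusted p = 2.51e-37), Rab27b (r = 0.590, rho = 0.553, adjusted p = 3.80e-34) and Sytl2 (r = 0.518, rho = 0.475, adjusted p = 3.97e-25) led. All 3 are the scarce paralogs of families dominated by Rab3d, Rab27a and Sytl4. Lowest were Syt3 (-0.472), Stxbp2 (-0.410) and Rab3d (-0.390). The delta cell score had 22 positive and 17 negative members (54.2%, against 46.1% of all genes, 23% positive and 23.1% negative), led by Syt1 (r = 0.613, rho = 0.629, adjusted p = 1.94e-37), with Sytl2 also high (0.429), with Syt3 (-0.399), Rab3d (-0.395) and Stxbp2 (-0.368) lowest. With the other scores as covariates, 6 members in place of 39 were called with the delta score, and the share of all genes in that fit is not given here.

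With the beta cell score, 22 members were positively and 13 negatively associated (48.6%, against 46.9% of all genes, 24.6% positive and 22.3% negative). Sytl4 (r = 0.514, rho = 0.477, adjusted p = 8.53e-24), Rims3 (r = 0.486, rho = 0.446, adjusted p = 5.03e-21) and Rab3a (r = 0.321, rho = 0.314, adjusted p = 3.49e-09) led. Rab27b (-0.456), Syt12 (-0.374) and Rab3c (-0.291) were lowest. Paralogs thus led different endocrine scores, with Sytl2 and Rab3c high for alpha and Sytl4 and Rab3a high for beta. Of the 4 textbook genes, only Stx1a was associated with the alpha score (r = 0.459, rho = 0.429, adjusted p = 4.15e-19), and its r with the beta score was -0.097 (adjusted p = 0.110). Vamp2 had r = 0.140 with the beta score (adjusted p = 0.0179), and Snap25 and Syt7 passed with neither.

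Cplx1, the neuronal complexin, had the highest r of any member with any score, 0.633 with that of neurons and Schwann cells (rho = 0.615, adjusted p = 7.44e-41). Its level was low, from 0.117 through a median of 0.997 to 5.23 CPM. Syt1 (0.468) and Rab3c (0.372) followed, and Rab3d (-0.278), Rab3gap1 (-0.251) and Syt3 (-0.218) were lowest. In all, 15 members were positive and 16 negative with this score (43.1%, against 30.7% of all genes, 14.9% positive and 15.9% negative). The endothelial score had 16 positive and 27 negative members (59.7%, against 51.2% of all genes, 24.1% positive and 27.1% negative). Rab3d (0.360), Vamp8 (0.349), a SNARE of many non-neuronal cells, and Syt3 (0.331) were highest and Syt14 (-0.429), Stx1a (-0.397) and Stxbp5l (-0.373) lowest. The score of pericytes and stellate cells had 13 positive and 22 negative members (48.6%, against 54.5% of all genes, 26.1% positive and 28.3% negative), from Syt3 (0.336), Vamp8 (0.276) and Stxbp2 (0.247) down to Sytl4 (-0.542), Syt14 (-0.468) and Stx1a (-0.393). The rank correlations with this score were lower, at rho = 0.120 for Syt3 and 0.091 for Stxbp2 (permutation p = 0.0199 and 0.0803).

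Macrophage, duct, acinar and lymphocyte scores touched fewer members. The macrophage score had 8 positive and 20 negative members (38.9%, against 36.4% of all genes, 17.6% positive and 18.8% negative), with Syt4 (0.242), Rab3il1 (0.207) and Stx12 (0.197) highest and Cplx2 (-0.308), Sytl4 (-0.305) and Syt14 (-0.283) lowest. The duct score had 10 in each direction (27.8%, against 28.8% of all genes, 14.6% positive and 14.3% negative), with Stx4a (0.278), Syt12 (0.235) and Stx1a (0.230) highest and Rab3gap1 (-0.259), Syt14 (-0.226) and Syt3 (-0.193) lowest. The lymphocyte score had 0 positive and 2 negative members by limma (2.78%, against 4.94% of all genes, 3.41% positive and 1.54% negative), Syt3 (-0.169) and Rab3d (-0.163). Syt13 had the next lowest r (-0.121, adjusted p = 0.151), and Cplx1 (0.142), Rab3il1 (0.139) and Stx12 (0.130) the highest, none of which passed.

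The acinar score had 6 positive and 4 negative members (13.9%, against 13.5% of all genes, 6.73% positive and 6.76% negative). Stx4a (r = 0.268, adjusted p = 1.70e-05), Cplx1 (0.238) and Stx1a (0.184) were highest and Rab3gap1 (-0.234), Rims2 (-0.217) and Vamp2 (-0.198) lowest. Of 8 members known from zymogen granule exocytosis, Stx4a, Rab27b (r = 0.174, adjusted p = 0.0111) and Vamp8 (r = 0.152, adjusted p = 0.0299) passed. Rab3d, the highest RAB3 gene in these libraries, had r = -0.114 (adjusted p = 0.124), and Sytl1 (-0.084), Stxbp2 (-0.027), Stx3 (-0.006) and Snap23 (0.081) did not pass either, while the summed acinar markers spanned 110.9 to 56204 CPM.

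**Figure D4:**
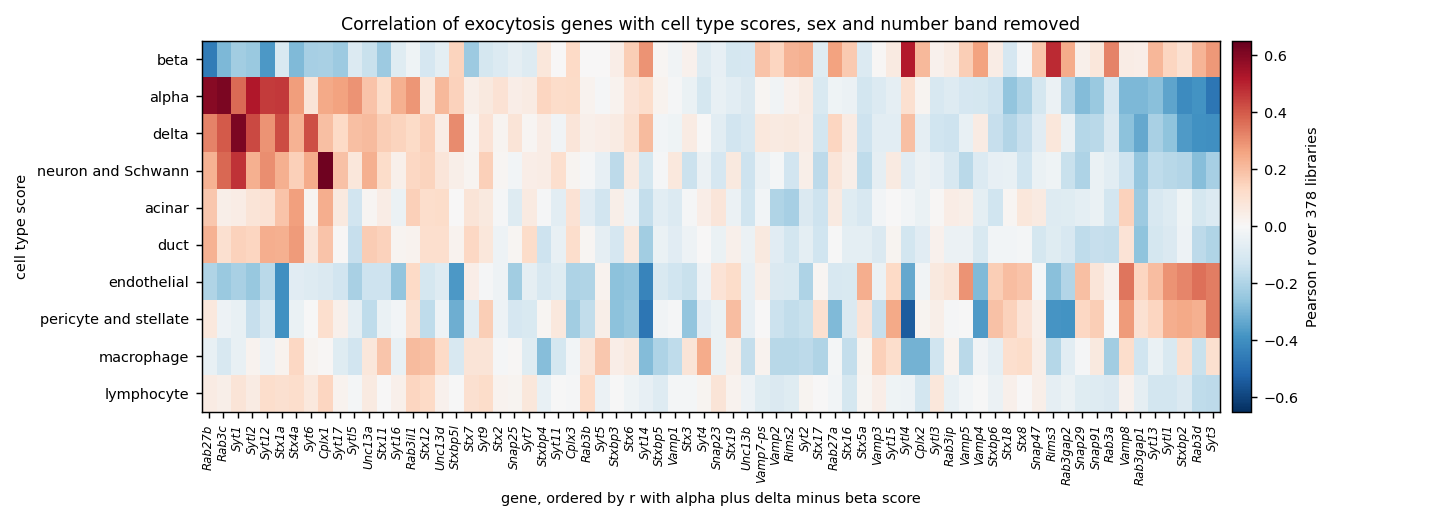
Pearson r of genes (columns) with the scores of 10 cell types (rows) over all libraries, with sex and number band removed, red for positive and blue for negative values. Genes are ordered by r with the alpha plus delta minus beta score, so Rab27b, Rab3c and Syt1 stand at the left and Syt3, Rab3d and Stxbp2 at the right.

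Sex was the contrast the labels allow. Of the 72 tested members, 29 were higher and 24 lower in females (edgeR quasi-likelihood test with band as covariate, adjusted p under 0.05 over 16927 genes). That is 53 of 72, where 50.6% of all tested genes were called (21.7% higher and 28.8% lower), so a call alone says little at this sample size. The median size of the difference was 0.0937 on the log2 scale for members and 0.0780 for all genes. Of the 53 called members, 49 had the same sign in all 4 bands, as did 82.7% of the 8561 genes called, and 11 were called within every band alone. For these 11 the share over all genes is not given here. A difference of the sex effect between bands was called for 1 of 72 members, where 1.09% of all genes were.

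Stx1a showed the clearest difference among the textbook genes. It ran from 10.8 through a median of 23.2 to 42.2 CPM in females and from 6.72 through 18.0 to 40.2 CPM in males. Females were higher by median and the ranges overlapped almost fully. The log2 difference was 0.38 ± 0.0328 (SE, 1.30-fold, adjusted p = 1.05e-23), and it was called in all 4 bands alone. Snap25 was higher in females by 0.04 (adjusted p = 0.0394), a call lost without the band covariate (adjusted p = 0.196). Vamp2, from 108.9 to 228.3 CPM in females against 111.4 to 221.5 CPM in males, differed by 0.00 ± 0.0157 (adjusted p = 0.821), and Syt7, at 405.3 and 405.8 CPM, by -0.00 ± 0.0238 (adjusted p = 0.984).

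The largest differences towards females were in scarce members. Sytl2 ran from 3.19 through 20.2 to 66.2 CPM in females and from 1.97 through 13.9 to 68.5 CPM in males (0.57 ± 0.0791, adjusted p = 5.58e-11). Females were higher by median, and the highest library was male. Rab3c ran from 4.51 through 15.3 to 33.1 CPM in females and from 1.24 through 10.49 to 29.2 CPM in males (0.54 ± 0.0581, adjusted p = 7.59e-17). Syt6 (0.44), Rab27b (0.43), the retinal complexin gene Cplx3 (0.42), Stx11 (0.41), Cplx1 (0.40), Stxbp5l (0.40) and the pseudogene Vamp7-ps (0.40) followed, each with adjusted p of 3.19e-04 or below. Sytl2, Rab3c, Syt6 and Rab27b were called in every band alone.

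Members lower in females included scarce ones, such as Syt3 (mean 5.02 CPM) with the largest difference, and the abundant Rab3d and Syt13. Rab3d ran from 87.7 through 181.1 to 332.4 CPM in females and from 108.7 through 222.7 to 420 CPM in males (log2 difference -0.31 ± 0.0360, adjusted p = 1.76e-14). Syt13 ran from 160.3 through 437.0 to 735.7 CPM in females and from 207.2 through 532.0 to 933.0 CPM in males (-0.29 ± 0.0335, adjusted p = 5.68e-15). For both genes the lowest, the median and the highest library were lower in females. Syt3 differed by -0.43 ± 0.0507 (adjusted p = 2.29e-14) and Sytl1, a Rab27 effector, by -0.37 ± 0.0553 (adjusted p = 7.75e-10), and these 4 genes were called in every band alone. Syt2 (-0.33), Snap91 (-0.28), Sytl3 (-0.26), Vamp5 (-0.24), the Stx4 partner Stxbp4 (-0.21) and Stxbp6 (-0.21) followed, the last with adjusted p = 0.0619 when band 4 was left out. Among other family leaders, Rab27a was higher in females by 0.08 (adjusted p = 1.84e-05), Stx12 by 0.12, Rims3 by 0.09 and Unc13a by 0.07, and Cplx2 was lower (-0.09, adjusted p = 0.00121). Of genes that ranked second in their families per kilobase, Vamp3 was higher by 0.09 (adjusted p = 2.77e-06) and Rab3a lower (-0.20, adjusted p = 5.11e-10). Sytl4, Syt4 and Snap47 did not pass.

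Cell type markers moved with sex as well. All 7 alpha cell markers were higher in females, with a summed level of 6297 to 71509 CPM (median 22974) against 2099 to 44288 CPM (median 11430) in males. All 5 delta cell markers were higher too (medians of 1475 and 1058 CPM, ranges 397.8 to 8202 and 109.3 to 5010 CPM), and all 10 endothelial markers were lower (medians of 515.0 and 569.5 CPM, ranges 376.5 to 713.9 and 410.5 to 1268 CPM). Of 11 beta cell markers, 7 were lower and 1 higher in females (medians of 133767 and 161007 CPM, with ranges 83729 to 237558 and 83013 to 342029 CPM). Of 8 tested markers of neurons and Schwann cells, 6 were higher and 1 lower in females, and of 14 acinar markers 1 was lower. No marker of any list was at 0 in every library. The scores of 6 non-endocrine cell types were used as covariates: acinar, duct, endothelial, pericyte and stellate, macrophage and lymphocyte. Scores of neurons and Schwann cells and of beta cells were not among the covariates, here or below. With these 6 scores, 41 of the 72 tested members were called, where 34.3% of all genes were. Of the 53 members called before, 39 remained called with the same sign, as did 62% of the 8561 genes called before. With the alpha and delta scores added, 20 of 72 members were called, where 21.2% of all genes were, and 17 of the 53 remained called with the same sign, as did 30% of the 8561 genes. Sytl2 (-0.05), Rab27b (-0.03), Syt3 (-0.03), Rab3d (-0.03) and Sytl1 (-0.04) were then not called. Nor were Rab3c (0.08, adjusted p = 0.366) and Cplx1 (0.06, adjusted p = 0.750), nor Cplx3 (0.29), Stxbp5l (0.23), Stx11 (0.21), Vamp5 (-0.11), Sytl3 (-0.08) and Stxbp6 (-0.03). Snap25, Stx12, Rims3, Unc13a and Cplx2 lost their calls as well. Stx1a (0.15, adjusted p = 1.43e-04), Syt13 (-0.13, adjusted p = 0.0103), Syt2 (-0.39, adjusted p = 1.06e-06) and Stxbp4 (-0.26, adjusted p = 1.71e-06) were still called, as were Syt6 (0.24), Snap91 (-0.15), Rab3a (-0.13), Vamp3 (0.10), Rab27a (0.08) and Vamp7-ps (0.40).

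**Figure D5:**
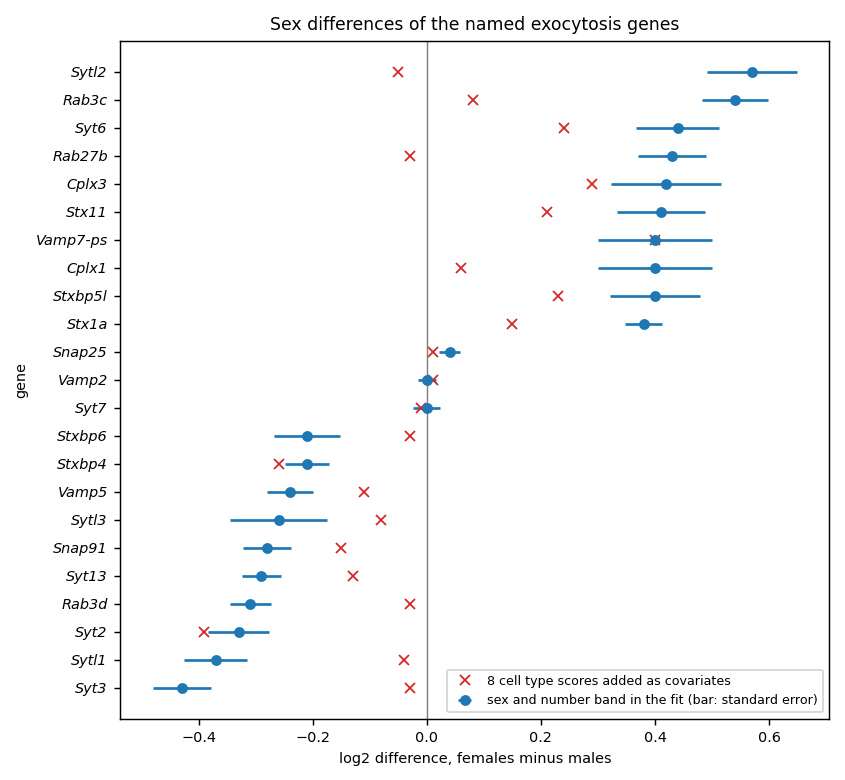
Log2 difference (females minus males) of the members named for sex and the 4 textbook genes. Blue dots with standard error bars are from the fit with sex and number band, and red crosses from the fit that adds 8 cell type scores. Sytl2 and Rab3c stand at 0.57 and 0.54 and Syt3 at -0.43, and the crosses of Sytl2, Rab27b, Syt3, Rab3d and Sytl1 lie near 0.

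A list of 61 other exocytosis genes, such as synaptic vesicle proteins, exocyst subunits and active zone scaffolds, was set beside the members. Of 60 tested, 15 were higher and 17 lower in females, where 21.7% of all genes were higher and 28.8% lower. The median size of the difference was 0.0607 on the log2 scale, against 0.0780 for all genes. The calcium sensor Otof differed most (log2 difference 0.87 ± 0.0934, adjusted p = 7.15e-17), with a female mean of 3.31 CPM and a male mean of 1.79 CPM. Doc2b (0.45), another calcium sensor of exocytosis, Ppfia2 (0.39), a liprin, and Mlph (0.37), the Rab27 effector melanophilin, followed. Lowest were Doc2g (-0.26), the priming factor gene Cadps2 (-0.25), the active zone scaffold gene Pclo (-0.20) and Myrip (-0.18), a Rab27 effector. With the 8 cell type scores as covariates, Otof (0.14, adjusted p = 0.318), Ppfia2 (-0.03, adjusted p = 0.760), Mlph (0.24, adjusted p = 0.0598) and Myrip (-0.03, adjusted p = 0.778) were not called, while Doc2b (0.33), Doc2g (-0.20), Cadps2 (-0.22) and Pclo (-0.15) were.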

How the data were processed

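Islet libraries were grouped by the sex letter of the title, with number band as covariate. The members and lists were chosen with earlier results of these data known. The count table the authors deposited holds expected counts per gene, unscaled for depth (67.7% of values whole). The second deposited table holds log2-like vst values, which held no difference between bands. Other deposited columns give gene positions in megabases. The submitters' processing notes name GRCm38 and DESeq2. The aligner, counter and strand setting: not given in the sources used here. Depth is 15.1 to 68.8 M counts per library.

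Expected counts were rounded and tested with edgeR 4.0.16 (R 4.3.3, TMM, filterByExpr by sex, quasi-likelihood F test, sex plus band, Benjamini-Hochberg over 16927 genes, threshold 0.05), as females minus males. Standard errors were the log2 difference over the square root of F. The same tool tested the bands and the interaction of sex with band. Transcript lengths and GC content came from GENCODE mouse release M21 (22076 of 22180 genes matched). Log2 CPM used prior count 2. Correlations used vst values with sex and band removed, 100000 two-sided permutations within sex and band, and limma 3.58.1 for p-values adjusted over all genes (Python 3.11.15, NumPy 2.4.6, SciPy 1.17.1). Both tests were checked on simulated data. Named genes were the 4 textbook genes, family leaders, the 10 called members with the largest sex difference in each direction, the 5 widest and 5 narrowest of mean CPM at least 5, the 3 highest and lowest for each score, the 5 most and least like genes, and 4 pathway genes in each direction. Further genes and pairs were picked with their values known. Alternatives were limma-voom, DESeq2 1.42.0 and its size factors, no or stricter count filters, cell type scores, single bands or sexes, other lengths and, added after seeing the data, removal of each library's slope over GC content. Separate mice are the replicates. Some members' results are not reported here.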

Additional observations from a re-analysis of the deposited data

How the results depend on the processing

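No paired analysis was possible because no mouse number is shared between the sexes. In place of 29 members higher and 24 lower in females, 11 and 9 were with 8 cell type scores as covariates, 17 of them among the 53. Within bands 1 to 4 alone the numbers higher were 9, 18, 18 and 19 and those lower 10, 13, 11 and 12. All 53 kept call and sign with limma-voom, with DESeq2 and with limma on the vst values. Members with a sex by band interaction went from 1 to 0 without band 4, and members that differ between bands from 62 to 28 without band 4 and to 0 on the vst values. That last 0 is no check, since no gene at all differed between bands there. For the counts in single bands and the 28 without band 4, shares over all genes are not given here. Sytl2 (-0.05) and Rab27b (-0.03) changed sign with 8 scores, and neither passed there. Syt7, at -0.00, changed sign without a band covariate (0.01), with DESeq2 and its size factors, without or with another filter, in band 1 and on the vst values (0.00 each), and in band 4 (0.12). Vamp2 changed sign in band 2 (-0.04), band 3 (-0.02) and without band 4 (-0.02). Without length, family shares were 99.3% for Rab27a, 67.3% for Rab3d, 54.1% for Snap25 (first in every library) and 70.2% for Unc13a; with the union of exons as length they were 89.5% for Rims3 and 22.7% for Stx12. The median SD of members was 0.320 with band not removed.

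In females alone, members called numbered 1 with the acinar score, 4 duct, 19 endothelial, 16 pericyte and stellate, 14 macrophage, 0 lymphocyte, 16 neuron and Schwann and 13 delta. In males alone they were 17 macrophage and 0 lymphocyte, and without band 4 they were 0 lymphocyte. With the other scores as covariates they were 4 acinar, 5 duct, 21 endothelial, 0 lymphocyte and 6 delta. Fewer mice enter the fits by sex or band, and for the other changes the cause was not tested. The shares of all genes called in these fits are not given here, so the counts show nothing particular to the members.

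Snap25 with Stx1a turned to -0.021 with 6 scores removed. Snap25 with Vamp2 lost its call with 6 scores removed (0.113), in females (0.202) and in males (0.094). Snap25 with Syt7 lost it in males (0.148). Stx1a with Vamp2 lost it with the GC slope removed (0.071), in females (0.062) and without band 4 (0.074). Snap25 with Cplx1 turned to -0.071 in females and to -0.002 without the 2 libraries farthest from the median. Rab3a with Rims2 lost its call in males (0.123), Rab27a with Sytl4 in females (0.038), Snap23 with Vamp8 in males (0.017) and Rab3d with Rab27b in females (-0.153). Stx4a with Stxbp3 turned to -0.038 in females and passed with the GC slope removed (0.166). Depth limits the members under 1 CPM, such as Cplx3, Rab3il1, Syt15 and Stx19, whose differences are the least certain.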

Other observations

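Some members are neighbours in the genome. Vamp5 and Vamp8 lie 4.75 kilobases apart on chromosome 6, with r = 0.194. The pseudogene Vamp7-ps lies 29.03 kilobases from Stx16 on chromosome 2, with r = 0.269 between them. Vamp7-ps ran from 0.258 through a median of 1.26 to 6.32 CPM, with 2 peaks in its distribution by eye, and its log2 sex difference was 0.40 both without and with 8 cell type scores as covariates. These neighbours were picked after their positions and values were seen, and no test was run on them.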
